A study of Mus musculus with 2 samples.

Results

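The cells described here are the osteolineage cells of E18.5 (embryonic day) marrow that the study's subclustering of bone marrow stromal cells (BMSCs) placed in subcluster 4, named OLCs-2. They were found by matching the study's list of barcodes to the WT count table, in which every listed OLCs-2 barcode was present. They made up 6.19% of 1649 listed E18.5 BMSCs (95% binomial interval, Clopper-Pearson, 5.07% to 7.46%). The other listed cells were 202 OLCs-1, 940 eBMSC-1, 149 eBMSC-2, 231 mitotic BMSCs and 25 adult-enriched aBMSCs. The series holds 2 libraries of Lin- femoral bone marrow cells from C57BL/6 embryos at E18.5, 1 from WT embryos and 1 from Bmx-CreER Wls embryos, both made with BD Rhapsody whole-transcriptome chemistry. In the Bmx-CreER Wls embryos a floxed Wls gene, needed for Wnt secretion, is deleted by a tamoxifen-controlled Cre that is driven by Bmx in arterial endothelial cells (ECs), so that the Wls level of an osteoblast is no check of the deletion. The labels do not give the number of embryos per library or whether the WT embryos received tamoxifen. Lineage-committed haematopoietic cells had been depleted from both libraries, and the cells had been released by crushing and collagenase digestion.

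Osteoblasts first secrete an organic matrix, made mostly of type I collagen, and then release matrix vesicles and matrix proteins under which calcium phosphate is laid down. Type I collagen is a helix of α1 and α2 chains, encoded by Col1a1 and Col1a2, which is folded with dedicated enzymes and chaperones in the endoplasmic reticulum (ER) and trimmed and cross-linked outside the cell. The transcription factors Runx2 and Sp7 act in series in the lineage, and osteoblasts that become buried in the matrix turn into osteocytes. In long bones before birth, osteoblasts line the new trabeculae and the bone collar around the growing marrow cavity, beside stromal cells that make haematopoietic niche factors.

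The OLCs-2 cells together held 606780 unique molecular identifiers (UMIs), with 875 to 12171 per cell and a median of 6026.5, and 296 to 2941 genes per cell with a median of 2076.5. OLCs-1 and ECs were shallower, with median totals of 3362.5 and 2841 UMIs. The mitochondrial share of UMIs in OLCs-2 ran from 0% to 8.56% with a median of 3.73%. Of the OLCs-2 barcodes, 4 also occurred in the Bmx-CreER Wls library, among 49 shared by both libraries, and there they held 0 to 305 Col1a1 UMIs against 413 to 2226 in WT. No doublets were removed, and 4 OLCs-2 cells were among the 5% of WT cells with the highest Scrublet doublet scores. With 1 library per condition no test between conditions was possible. The subclusters had been drawn from these same counts, so differences between them describe the classes and are not tested. Levels are given as counts per 1000000 UMIs of a class (CPM), ratios are of CPM, and bracketed ranges are 95% intervals that cover counting error only. Shares and CPM count molecules and are not divided by gene length.

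OLCs-2 were dominated by matrix transcripts. Col1a1 made up 15.8% of their UMIs (15.7% to 15.9%), and together with Col1a2, Ibsp and Sparc it reached 32.5%. Type I collagen alone accounted for 25.5% of UMIs in OLCs-2, against 14.996% in aBMSCs, 7.08% in eBMSC-1, 5.05% in mitotic BMSCs, 3.43% in OLCs-1 and 1.37% in eBMSC-2. In ECs of the same library it was 0.0193%. Within single OLCs-2 cells the Col1a1 share ran from 0.0970% to 36.4% with a median of 14.98%, and the Ibsp share ran from 0% to 10.6% with a median of 3.38%. Single cells thus spanned a wide range for both genes. Next in number of UMIs came Serpinh1, Col11a1, Col5a2, Actb, Fos, Cd63, Ckap4, Col11a2, Cfl1, Lox and Spp1, each below 1% of the total. Mitochondrial, haemoglobin, Xist, Y-linked, ribosomal protein and unnamed genes were left out of this ranking.

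**Figure D1:**
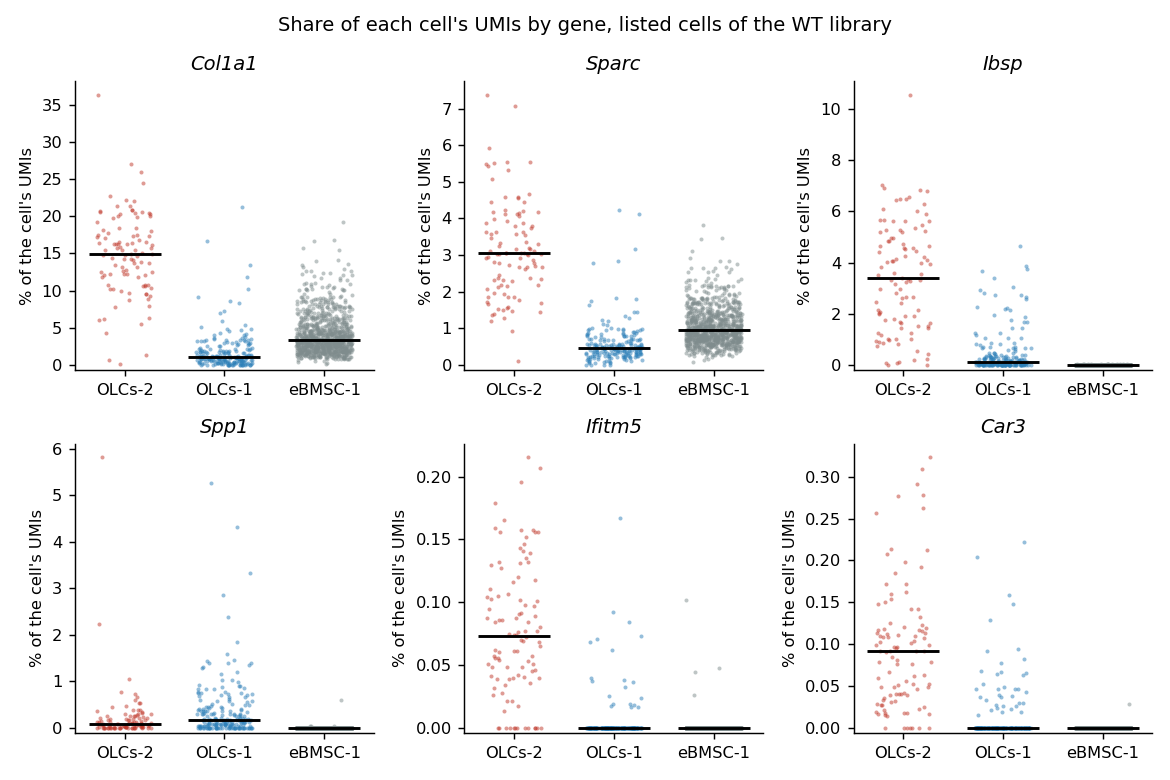
Share of a cell's UMIs (percent, vertical axis) taken by Col1a1, Sparc, Ibsp, Spp1, Ifitm5 and Car3 in each OLCs-2, OLCs-1 and eBMSC-1 cell, with 1 point per cell and a line at the median. The median OLCs-2 cell held 14.98% Col1a1 and 3.38% Ibsp, and a few OLCs-2 cells sit near 0 for both.

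The class was drawn from these same counts, so its 5 given markers describe it and are no independent check of the label. On GRCm38 they lie at chr11:94936224-94953042 (Col1a1), chr7:140948958-140950291 (Ifitm5), chr3:14863512-14872523 (Car3), chr3:88383501-88384464 (Bglap) and chr3:88377736-88378699 (Bglap2). Ifitm5, which encodes the osteoblast membrane protein BRIL, stood at 788 CPM (719 to 862) in OLCs-2 and had a UMI in 89 cells, against 61.8 CPM in OLCs-1 and 1.37 CPM in eBMSC-1. Of 127 Ifitm5 UMIs in the other listed BMSCs, 45 lay in OLCs-1. Most of the others lay outside eBMSC-1, in classes that include the 25 aBMSCs. The aBMSCs held 14.996% type I collagen, and 10 of the 25 were assigned to OLCs-2 in the trial described below. The low Ifitm5 levels of OLCs-1 and eBMSC-1 therefore do not stand for that class. Car3, a carbonic anhydrase, stood at 926 CPM (851 to 1006) in OLCs-2 and at 144 CPM in OLCs-1. Their shares of cells with a UMI in OLCs-2 were 87.3% and 93.1%. In ECs, which should lack both genes, the shares were 0.230% and 0% at a median depth of 2841 UMIs against 6026.5. After each cell was thinned to 1000 UMIs, which left out 5 OLCs-2 and 13 ECs, the Ifitm5 share was 60.8% in OLCs-2 and 0% in ECs, and the Car3 share was 52.6% and 0%. Bglap and Bglap2, the neighbouring copies that encode osteocalcin, were sparse, with 28 UMIs in 15 cells and 24 UMIs in 12 cells. Of all Bglap UMIs in the listed BMSCs, 82.4% lay in OLCs-2, and of Bglap2 UMIs 77.4%. Both are uncertain as single genes, since 71.4% of the 60-base windows of the Bglap transcript recur in Bglap2, so reads from one copy may be lost or credited to the other. Of the OLCs-2 cells, 4 held a UMI of 1 of the markers, 10 of 2, 69 of 3, 13 of 4 and 6 of all 5.

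Ibsp, Ifitm5 and Bglap had their highest level in OLCs-2 among the listed BMSC classes, though for Bglap the interval overlapped that of aBMSCs, at 46.1 CPM (30.7 to 66.7) and 31.8 CPM (8.66 to 81.4). The promoters of these 3 genes are printed because each had its highest level in this class, with that limit for Bglap. Each run is the RefSeq sequence of the 250 bases before the gene's start in RefSeq (build GRCm38.p6), 5′ to 3′ on the gene's strand. The GENCODE starts differ, and those of Ibsp, at 104299171, and Ifitm5, at 140950291, lie inside these windows. Capitals mark matches to 4 motifs, searched on both strands: the RUNX core (ACCACA), the TATA box (TATAAA), the CCAAT box (CCAAT) and the core of the cyclic AMP element (TGACGT).
Bglap, chr3:88384467-88384716, minus strand: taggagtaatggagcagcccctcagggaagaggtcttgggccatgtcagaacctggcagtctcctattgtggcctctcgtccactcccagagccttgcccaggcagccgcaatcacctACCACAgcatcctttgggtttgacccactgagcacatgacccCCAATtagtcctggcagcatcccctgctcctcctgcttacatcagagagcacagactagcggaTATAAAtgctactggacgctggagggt
Ibsp, chr5:104299037-104299286, plus strand: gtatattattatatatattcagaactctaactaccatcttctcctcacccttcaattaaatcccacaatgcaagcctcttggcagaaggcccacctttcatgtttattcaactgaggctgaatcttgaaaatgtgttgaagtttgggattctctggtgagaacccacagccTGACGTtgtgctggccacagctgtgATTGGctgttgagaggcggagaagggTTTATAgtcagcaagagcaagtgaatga
Ifitm5, chr7:140950244-140950493, minus strand: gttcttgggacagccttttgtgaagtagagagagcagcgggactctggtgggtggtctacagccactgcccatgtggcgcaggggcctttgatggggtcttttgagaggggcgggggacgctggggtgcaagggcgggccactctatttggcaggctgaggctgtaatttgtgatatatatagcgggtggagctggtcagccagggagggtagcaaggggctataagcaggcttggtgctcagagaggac

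Counted back from the RefSeq start, the Bglap window held the RUNX core at -132 to -127, the CCAAT box at -90 to -86 and the TATA box at -27 to -22. In the Ibsp window the cyclic AMP element lay at -79 to -74, the CCAAT box, on the other strand, at -54 to -50 and the TATA box, also on the other strand, at -28 to -23. None of the 4 motifs occurred in the Ifitm5 window. Among 32851 promoters of the same length, 14.0% held the RUNX core, 12.4% the TATA box, 33.8% the CCAAT box and 6.47% the cyclic AMP element. The 20 genes with the highest ratios in OLCs-2, against the other BMSCs or OLCs-1, were taken from genes with at least 200 UMIs. Of the 14 promoters available for 12 of them, 0 held the RUNX core, 3 the TATA box, 5 the CCAAT box and 2 the cyclic AMP element. These are matches of letters and not binding sites.

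Against the other listed BMSCs, 10322 genes had at least 30 UMIs over both groups. Of these, 525 (5.09%) were at least 2-fold higher in OLCs-2 and 3449 (33.4%) were at least 2-fold lower. The median ratio over all genes was 0.674 on totals that include type I collagen. With Col1a1 and Col1a2 removed from the totals, 874 genes were higher and 2461 lower, with a median of 0.851. With TMM scaling 915 were higher and 2391 lower, with a median of 0.873. Ratios below are on the full totals and are to be read against 0.674, and list counts against 5.09% higher and 33.4% lower. None of the 15 list medians given below for this comparison crossed 1 when type I collagen was removed. Against OLCs-1, 320 of 5947 genes (5.38%) were at least 2-fold higher and 1820 (30.6%) lower, with a median of 0.658, and the split was 508 to 1083 without type I collagen in the totals and 705 to 766 with TMM. Against eBMSC-1, 559 of 8832 genes (6.33%) were higher and 2744 (31.1%) lower, with a median of 0.724.

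The 12 highest ratios against the other BMSCs belonged to Slc13a5, Ifitm5, Car3, Ibsp, Smpd3, Cgref1, Col11a2, Panx3, Entpd3, Phex, Col13a1 and Hpgd. Slc13a5 encodes the plasma membrane citrate carrier, and citrate is a constituent of bone mineral. It stood at 351 CPM (305 to 401) in OLCs-2, with a UMI in 68.6% of cells, and at 3.64 CPM in the other BMSCs, a ratio of 96.4 (60.2 to 163). Of those 19 UMIs in the other BMSCs, 17 came from aBMSCs and 2 from OLCs-1. The gene was not restricted to osteoblasts, since listed chondrocytes held 206 UMIs at 63.1 CPM. Panx3, a channel protein, stood at 1351 CPM against 91.2 CPM, and Hpgd, which degrades prostaglandins, at 430.1 against 33.2 CPM. Entpd3, an ecto-nucleotidase, had a ratio of 14.6 (11.5 to 18.8) and Cgref1, a secreted calcium-binding protein, one of 23.4 (17.4 to 31.9).

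**Figure D2:**
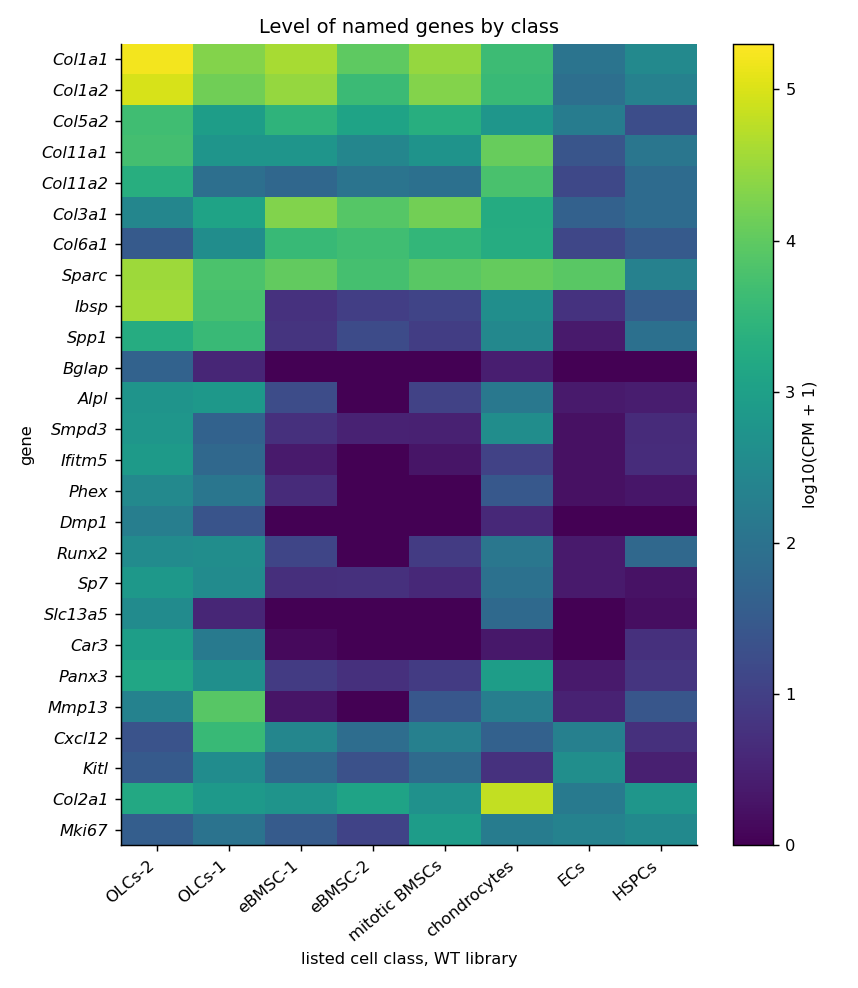
Heatmap of the level of named genes in 8 classes of the WT library, coloured by log10 of CPM plus 1. OLCs-2 hold the highest level of Ifitm5 (788 CPM), Slc13a5 (351 CPM) and Ibsp (36316 CPM) among the classes drawn, which leave out the 25 aBMSCs. OLCs-1 come next for Ifitm5 and Ibsp, and chondrocytes for Slc13a5.

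Most fibrillar collagens were higher in OLCs-2. Of 11 listed, all tested, 7 were at least 2-fold higher and 3 lower than in the other BMSCs, with a median ratio of 2.11 against 0.674 over all genes. Col1a1 stood at 157682 CPM against 34623 CPM, a ratio of 4.55 (4.52 to 4.59), and Col1a2 had a ratio of 4.04 (4.00 to 4.08). Among the type V and XI chains, which are built into type I fibrils and set their diameter, Col11a1 had a ratio of 8.37, Col11a2 of 18.3 (16.6 to 20.2) and Col5a2 of 2.11. Col5a1 stood at 0.579 (0.535 to 0.625), and Col5a3 had 0 UMIs in OLCs-2 against 3461 in the other BMSCs, at least 134-fold lower with 3 UMIs taken for 0. Col24a1, a minor fibrillar collagen of bone, had a ratio of 16.2 (10.4 to 25.4). Col3a1, the fibrillar collagen of loose connective tissue, was far lower, at 275 CPM against 14619 CPM and a ratio of 0.0188 (0.0161 to 0.0219). Col2a1, the collagen of cartilage, was also among the 7, at 2.11, but its ratio was 1.49 without the 2 cells richest in chondrocyte markers.

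Non-fibrillar collagens were mostly lower, with 12 of 19 tested at least 2-fold lower, 3 higher and a median ratio of 0.0765. Col6a1, a chain of the microfibrils around soft tissue cells, had a ratio of 0.010 (0.00603 to 0.0156). Col14a1, a fibril-associated collagen, had 0 UMIs in OLCs-2 and 6433 in the other BMSCs, which makes it at least 249-fold lower when 3 UMIs are taken for 0. Among the higher ones were Col13a1, a membrane collagen, at 13.9 (10.7 to 18.3), and Col22a1 at 4.43 (3.82 to 5.12). The third, Col10a1, the collagen of hypertrophic cartilage, had 321 UMIs, of which 315 lay in 1 cell. Its ratio was 12.1 with that cell and 0.226 without the 3 cells of lowest Col1a1 share, of which it is 1.

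Genes for making collagen in the ER were higher in OLCs-2 in 10 of 24 tested and lower in 2, with a median ratio of 1.64. Serpinh1, the collagen-specific chaperone HSP47, stood at 7968 CPM against 2562 CPM, a ratio of 3.11 (3.01 to 3.21). Creb3l1, the ER-bound transcription factor that drives collagen genes in osteoblasts, had a ratio of 5.37 (4.91 to 5.88). Higher too were Fkbp10, a prolyl isomerase, by 3.03, P4ha1, a prolyl 4-hydroxylase chain, by 2.65, and Lepre1, the prolyl 3-hydroxylase P3H1, by 2.36. The coat proteins Sec23a and Sec24d, which carry procollagen out of the ER, had ratios of 2.60 and 2.07, and the retrieval receptors Kdelr2 and Kdelr3 had 2.95 and 3.14. Against OLCs-1 the same list had 11 of 22 tested higher and 1 lower.

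The general ER folding and secretion list had smaller ratios. Of 32 tested, 7 were at least 2-fold higher, 0 lower and 25 between, with a median of 1.35. Some channel and signal-sequence receptor subunits were higher, with Sec61b at 3.11, Sec61a1 at 2.20 and Ssr4 at 2.24. Xbp1, a transcription factor of secretory cells, had a ratio of 2.05 (1.76 to 2.39). Of the broad chaperones, the ratio on the full totals was 1.07 for Hspa5, 0.808 for Calr, 0.913 for Canx and 0.9498 for Pdia3. Of 16 amino acid supply genes tested, 4 were higher and 4 lower with a median of 1.31, beside 5.09%, 33.4% and 0.674 over all genes. Pycr1, which makes proline, was at 3.38 (2.76 to 4.13) and Psat1, of serine synthesis, at 3.78 (3.10 to 4.59), and against OLCs-1 Pycr1 reached 9.19 (5.61 to 16.0). Of 14 glycolysis genes 1 was higher and 4 lower with a median of 0.700, close to the median of all genes.

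Collagen processing outside the cell was mixed, with 5 of 18 genes tested at least 2-fold higher, 8 lower and a median of 0.612. Over all genes the values were 5.09%, 33.4% and 0.674. Pcolce2, an enhancer of procollagen cleavage, had a ratio of 10.8 (7.81 to 15.01). The cross-linking enzymes split, with Lox at 2.96 (2.77 to 3.16) and Loxl4 at 5.44 (3.35 to 8.70), but Loxl1 at 0.0188 (0.00388 to 0.0551). Proteinases went both ways. Mmp14 had a ratio of 0.281 and Mmp13, the collagenase of bone, 0.176 (0.147 to 0.208), while Mmp2 stood at 0.653, Mmp16 at 1.91 and Adamts3, which trims procollagen, at 3.17 (1.59 to 5.98). Of the inhibitors of metalloproteinases, Timp1 was higher at 3.76 (3.06 to 4.59) and Timp2 lower at 0.124 (0.101 to 0.151).

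Of 24 non-collagen matrix genes tested, 6 were higher, 8 lower and the median was 0.725, beside 5.09%, 33.4% and 0.674 over all genes. The higher ones were Ibsp, Sparc, Spp1, Omd, Bglap and Bglap2, all known from mineralized matrix. Ibsp, bone sialoprotein, stood at 36316 CPM in OLCs-2, 18318 in aBMSCs, 5750.1 in OLCs-1 and 4.79 in eBMSC-1. It had a UMI in 98.0% of OLCs-2 cells against 1.61% of ECs (100% and 0.711% after thinning, which drops the shallowest cells), and 70.3% of all Ibsp UMIs of the WT library lay in OLCs-2. Sparc, osteonectin, had a ratio of 3.54 (3.48 to 3.60), and Omd, osteomodulin, of 5.42 (3.83 to 7.61). Spp1, osteopontin, had a ratio of 3.34 (3.12 to 3.58) against the other BMSCs but 0.484 (0.452 to 0.519) against OLCs-1, and 191 of its 1172 UMIs lay in 1 cell. Postn, periostin, Aspn, asporin, and Ogn, osteoglycin, were lower, with ratios of 0.0174, 0.00781 and 0.0547.

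Of 14 mineralization genes tested, 4 were at least 2-fold higher, 7 lower and the median was 0.548, beside 5.09%, 33.4% and 0.674 over all genes. The 4 were Ifitm5, Smpd3, Phex and Alpl. Smpd3, the sphingomyelinase without which bone fails to mineralize, stood at 598 CPM against 20.9 CPM, a ratio of 28.6 (23.1 to 35.8). Phex, a phosphate-regulating peptidase, had a ratio of 14.0 (11.1 to 17.8). Alpl, alkaline phosphatase, had a ratio of 4.81 (4.20 to 5.50) against the other BMSCs and 0.834 (0.724 to 0.960) against OLCs-1. Enpp1, which makes the mineralization inhibitor pyrophosphate, was lower at 0.121 (0.0521 to 0.241), and the phosphate carrier Slc20a2 at 0.130 (0.0420 to 0.307). Phospho1, the phosphatase of matrix vesicles, had 1 UMI in the whole class and only 5 in the whole WT library.

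Genes of the osteocyte were present at low counts. Dmp1, a matrix phosphoprotein of early osteocytes, had 109 UMIs in 25 cells, with 25 of them in 1 cell, and a ratio of 37.5 (24.1 to 60.4). Mepe, another phosphoprotein of that family, had 35 UMIs in 18 cells and a ratio of 43.0 (18.8 to 115). Sost, the sclerostin gene of mature osteocytes, had 0 UMIs in OLCs-2, where 3 UMIs would equal 4.94 CPM, and 1 in the whole WT library. A UMI of Dmp1 or Mepe was seen in 37 cells, and a UMI of Bglap or Bglap2 in 20. Both kinds occurred together in 10 cells. Over the whole list 3 of 6 genes tested were higher and 3 lower, with a median of 7.22.

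**Figure D3:**
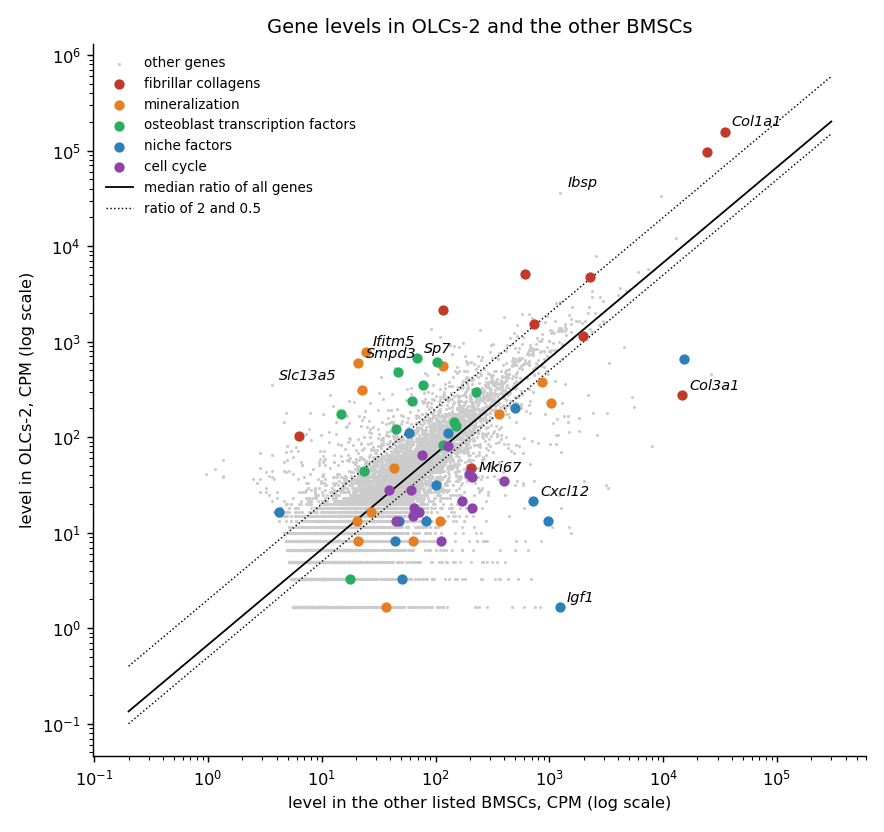
Level of each gene in OLCs-2 (vertical, CPM, log axis) against the other listed BMSCs (horizontal, CPM, log axis), leaving out genes at 0 in either group, with 5 gene lists coloured. Among fibrillar collagens Col1a1 reaches 157682 CPM in OLCs-2, while niche factors fall below the diagonal, as with Cxcl12 at 21.4 against 721 CPM.

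Transcription factors of the osteoblast lineage were on the higher side, with 7 of 14 tested at least 2-fold higher, 2 lower and a median of 2.32. Runx2 had a ratio of 4.62 (3.90 to 5.46) and Sp7 of 9.78 (8.46 to 11.3). Tcf7, a Wnt effector, stood at 11.9 (8.76 to 16.2) and Mef2c at 6.02 (5.26 to 6.88). Against OLCs-1, 2 of 13 were higher and 2 lower, with a median of 1.27. There Sp7 had a ratio of 1.84 (1.57 to 2.16) and Runx2 of 0.887 (0.741 to 1.06), while Dlx3 reached 4.04 (2.86 to 5.82) and Tcf7 3.07 (2.12 to 4.52). Of the 13 factors tested against OLCs-1, 9 lay within 2-fold.

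Most niche factors were lower in OLCs-2. Of 13 tested, 10 were at least 2-fold lower and 1 higher, with a median of 0.188. Cxcl12, the chemokine that retains haematopoietic stem cells, stood at 21.4 CPM (11.4 to 36.6) in OLCs-2, 721 CPM in the other BMSCs and 3638 CPM in OLCs-1, and the ratio to OLCs-1 was 0.00589 (0.00313 to 0.0101). Kitl, stem cell factor, had a ratio of 0.309 (0.185 to 0.488) against the other BMSCs and 0.0832 (0.0493 to 0.132) against OLCs-1. Ptn, pleiotrophin, stood at 0.0136 (0.00588 to 0.0269). Igf1 had 1 UMI in OLCs-2 and 6405 in the other BMSCs, a ratio of 0.00134 (3.4e-05 to 0.00748). Angpt1, the ligand of the endothelial receptor Tie2, stood at 1.89 (1.43 to 2.47). Tgfb1, the growth factor TGF-β1, was the gene on the higher side, at 3.91 (1.65 to 8.60).

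The list for osteoclast control had 1 of 9 genes higher and 6 lower, with a median of 0.363. Tnfsf11, which encodes the osteoclast-inducing ligand RANKL, had 0 UMIs in OLCs-2 and stood at 52.2 CPM in OLCs-1, so it was at least 10.6-fold lower with 3 UMIs taken for 0. Csf1, the macrophage growth factor, had a ratio of 0.134 (0.0845 to 0.201). Sema4d, a semaphorin, was the higher one, at 10.8 (7.35 to 15.9). Of 24 receptors, 3 were higher and 10 lower, with a median of 0.672. Over all genes 5.09% were higher and 33.4% lower, with a median of 0.674, so the receptors as a list lay close to all genes. Pth1r, the parathyroid hormone receptor, stood at 5.87 (5.03 to 6.84) and Vdr, the vitamin D receptor, at 3.77 (3.19 to 4.43), while Pdgfrb and Egfr had 1 UMI each.

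OLCs-1, the other osteolineage class, was compared separately. Among genes with at least 200 UMIs, those furthest above it were Slc13a5, Col11a2, Pcsk6, Col22a1, Smpd3, Ifitm5, Col11a1, Cthrc1, Col1a1, Tmem119, Col1a2 and Fam46a. Slc13a5 had 2 UMIs in OLCs-1 and a ratio of 128 (34.9 to 1061), Pcsk6, a proprotein convertase, a ratio of 15.1 (10.4 to 22.7), and Tmem119, a membrane protein of osteoblasts, one of 7.12 (4.91 to 10.6). Fibrillar collagens were higher in 8 of 11 genes with a median of 5.43, against 0.658 over all genes. Of the genes furthest below, Mmp13 had a ratio of 0.0266 (0.0223 to 0.0315) and Mmp9, a proteinase known from osteoclasts, 0.00941 (0.00574 to 0.0146). Osteoclast markers, Mmp9 among them, had a summed level of 3586 CPM there against 119 CPM in OLCs-2. Mmp9 itself made up 2548 of their 2609 UMIs in OLCs-1 and 20 of 72 in OLCs-2, so the sum mostly repeats the Mmp9 difference. The part of osteoclast RNA in that difference was not tested. Lpl, lipoprotein lipase, had a ratio of 0.00784 (0.00213 to 0.0202). Niche factors were lower in 9 of 10 tested, with a median of 0.0886.

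**Figure D4:**
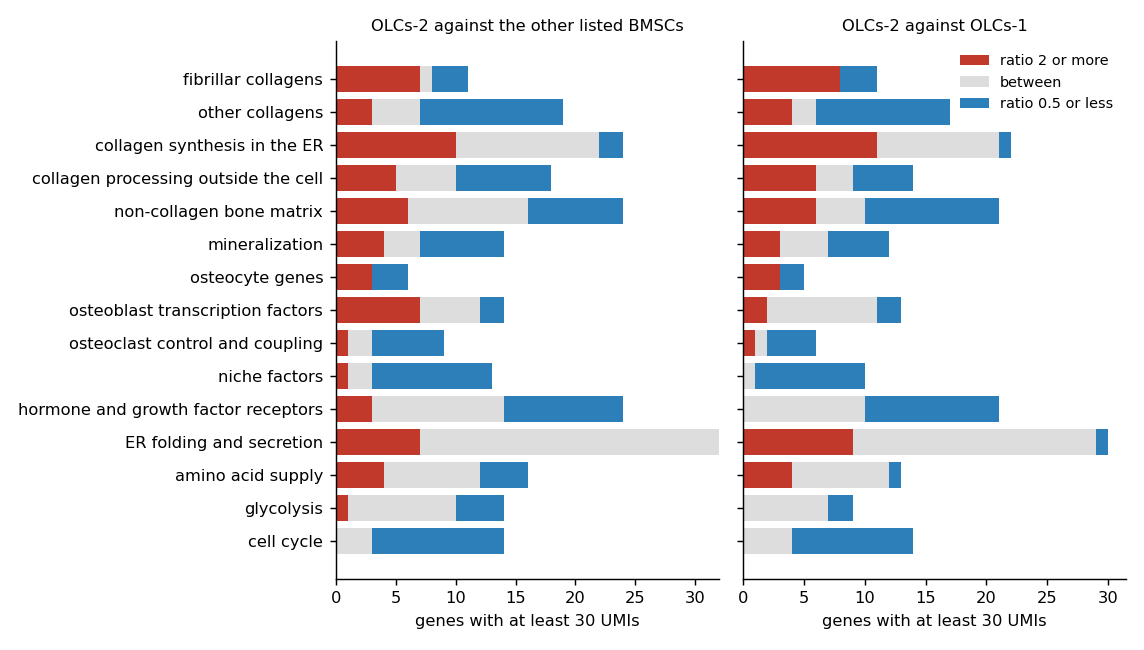
Number of genes in 15 lists that were at least 2-fold higher, at least 2-fold lower or between in OLCs-2, against the other listed BMSCs and against OLCs-1. Fibrillar collagens have 7 and 8 genes higher in the 2 comparisons, and niche factors have 10 and 9 lower.

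Cell cycle genes were low in OLCs-2 and in eBMSC-1 alike, with summed levels of 427 and 443 CPM, against 134 CPM in eBMSC-2, 1106 in OLCs-1, 3892 in aBMSCs and 7093 in mitotic BMSCs. Of 14 genes, 11 were at least 2-fold lower than in the other BMSCs, which include the mitotic subcluster, and 0 higher, with a median of 0.234. Mki67 had a UMI in 9 cells and a ratio of 0.183 (0.116 to 0.277), and Top2a one of 0.0868 (0.0536 to 0.133). Against OLCs-1, 10 of 14 were lower and 0 higher, with a median of 0.334, and against eBMSC-1, 3 of 12 were lower and 2 higher, with a median of 0.954 beside 0.724 over all genes. A UMI of at least 5 of the 14 genes was found in 12 cells, and of at least 2 in 27.

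Markers of blood, endothelial and tendon cells were at or near 0 in OLCs-2. Haematopoietic markers summed to 9.89 CPM with 4 of 6 genes at 0, endothelial markers to 3.30 CPM with 4 of 6 at 0, and erythroid markers to 1.65 CPM with 5 of 6 at 0. Tendon markers summed to 9.89 CPM, mural markers to 75.8 CPM with 3 of 6 at 0, and osteoclast markers to 119 CPM against 769 CPM in the other BMSCs. Chondrocyte markers summed to 2024 CPM, of which Col2a1 made up 1544 CPM. Listed chondrocytes held 64604 CPM of it, HSPCs 619 CPM and ECs 146 CPM. In OLCs-2, 231 of 937 Col2a1 UMIs lay in 1 cell, whose Col1a1 share was 13.6%. Without the 2 cells richest in chondrocyte markers, Col2a1 stood at 1092 CPM and the list at 1289.5 CPM. The part of cartilage RNA in the level of Col2a1 was not tested.

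In 3 OLCs-2 cells Col1a1 made up less than 2% of UMIs, and the next lowest cell had 4.29%. They were among the shallowest of the class, with 1031, 970 and 875 UMIs. The first was led by Col10a1 (315 UMIs), Spp1, Mgp and Col2a1, the third by H19, Col3a1 and Col1a1, and none of the 3 held an Ifitm5 UMI. In the other 99 cells, the Col1a1 share ran with that of Col1a2 (Spearman 0.926, n = 99 cells), Sparc (0.781), Col5a2 (0.664), Col11a1 (0.660) and Dmp1 (0.466). It ran against that of Hspa5 (-0.580), Tnc (-0.563) and Serpine2 (-0.547). In 96 cells thinned to 1000 UMIs the values for Col1a2, Sparc and Dmp1 were 0.867, 0.674 and 0.353, and for Hspa5 -0.497. With Ibsp and Ifitm5, the Col1a1 share had values of -0.118 and -0.0459. The Ibsp share had values of 0.434 with Panx3 and 0.371 with Serpine2 (0.249 and 0.349 after thinning), and of -0.441 with Dcn and -0.401 with Col3a1 (-0.248 and -0.391 after thinning). These coefficients describe cells of 1 library that share its chemistry, their shares sum to a fixed total, and the Col1a1 share itself had a value of 0.358 with depth.

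For the comparison of genotypes, cells of both libraries were assigned to the listed class whose profile they resembled most over 2000 genes, because the list covers WT cells only. When class profiles were built from one portion of the listed cells and tried on the rest, 100 OLCs-2 were recovered and 2 were not, while 22 of 3589 other listed cells were drawn in, 10 of them OLCs-1 and 10 aBMSCs. In WT 117 of 5736 cells were OLCs-2-like, 2.04% (1.69% to 2.44%), and in Bmx-CreER Wls 71 of 6620, 1.07% (0.839% to 1.35%). As a share of cells assigned to BMSC classes these were 6.62% (5.51% to 7.88%) and 5.50% (4.32% to 6.89%), so the intervals overlapped on that denominator and did not on the share of all cells. Median totals were 6266 and 7285 UMIs, and 4 and 1 of these cells had barcodes found in both libraries. The 117 WT cells were listed as 100 OLCs-2, 8 aBMSCs, 7 OLCs-1, 1 chondrocyte and 1 eBMSC-1. Their cell cycle genes summed to 997 CPM, against 427 CPM in the listed OLCs-2. No Bmx-CreER Wls cell went into the class profiles, which were built from listed WT cells. Library and genotype cannot be told apart with 1 library each.

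Between the libraries most genes of the OLCs-2-like profile lay within 2-fold. Of 4865 genes with at least 30 UMIs, 104 (2.14%) were at least 2-fold higher in Bmx-CreER Wls and 53 (1.09%) lower, with a median ratio of 1.04. Col1a1 stood at 150935 CPM in WT and 125993 CPM in Bmx-CreER Wls, a ratio of 0.835 (0.827 to 0.843), and Ibsp at 34999 CPM in WT and 29229.6 CPM in Bmx-CreER Wls. Fibrillar collagens had 0 of 10 genes past 2-fold in either direction, collagen synthesis in the ER 0 of 21, mineralization 0 of 8 and osteoblast transcription factors 0 of 12. Ifitm5 had a ratio of 1.19 (1.05 to 1.34), Slc13a5 of 1.01 (0.824 to 1.24) and Smpd3 of 1.03 (0.884 to 1.19). Wls itself had a ratio of 0.935 (0.766 to 1.14).

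Dmp1 was the lowest of the genes with at least 100 UMIs. It stood at 167 CPM in WT and 46.8 CPM in Bmx-CreER Wls, a ratio of 0.281 (0.173 to 0.437), from 123 and 24 UMIs in 32 of 117 and 13 of 71 cells. Without the cell richest in Dmp1 of each library the ratio was 0.279. Phex had a ratio of 0.636 (0.497 to 0.809) and Mepe of 0.795 (0.443 to 1.39), an interval that spans 1. Of the 3 osteocyte genes with enough UMIs, only Dmp1 was at least 2-fold lower, beside 1.09% of all genes tested. On the higher side, Col6a2 had a ratio of 4.62 (2.997 to 7.34), Dlk1, an imprinted membrane protein of immature cells, of 4.16 (2.94 to 5.97), H19, an imprinted noncoding RNA, of 3.18 (2.80 to 3.62), and Igf2, its imprinted neighbour, of 2.01 (1.79 to 2.27). In the Bmx-CreER Wls library 324 of 777 H19 UMIs lay in 1 cell, and without the richest cell of each library the ratio was 2.92. In the WT library H19 stood at 31516 CPM in eBMSC-1 against 459.8 CPM in OLCs-2, Igf2 at 18157 against 654 CPM, and Col6a2 at 3718 against 29.7 CPM. The part of cells or RNA of other classes in these differences was not tested. H19, Dlk1 and Col6a2 in this comparison were chosen after their values were seen.

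**Figure D5:**
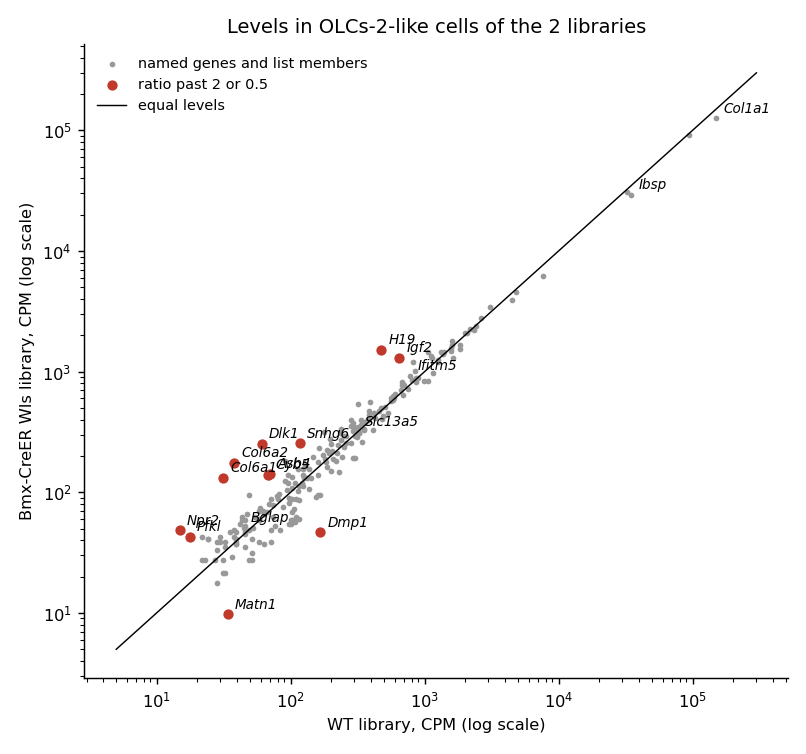
Level of named genes in OLCs-2-like cells of the WT library (horizontal) and the Bmx-CreER Wls library (vertical), both in CPM on log axes. Most genes lie near the diagonal, Dmp1 lies below it at 167 and 46.8 CPM, and H19 above it at 476 and 1516 CPM.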

How the data were processed

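The deposited UMI counts, 1 long table of genes and cells per library, were made by the authors with bcl2fastq 2.19.1.403, UMI-tools 1.0.1, STAR 2.7.1a and featureCounts 1.6.4 of Subread on mm10, as named in the submitters' processing notes. The strand setting was not given in the sources used here. The WT table held all 102 listed OLCs-2 barcodes and the other 1547 listed E18.5 BMSCs. The members and gene lists were chosen with earlier results of these data known. Counts were summed per class and scaled to CPM. A gene with at least 30 UMIs over both groups was called at a ratio of at least 2 or at most 0.5, with a group at 0 set to 3 UMIs. The CPM ratio carries an exact conditional binomial 95% interval. There was 1 library per condition, so no test was run. Both libraries were filtered to 200 to 5000 genes and under 30% mitochondrial UMIs for the assignment of cells, which used the correlation with the mean profiles of 18 listed classes. Named genes were the 15 most abundant in OLCs-2, the 12 highest and 12 lowest ratios in each of the comparisons with the other BMSCs and with OLCs-1 (at least 200 UMIs), the given markers and the members of 23 lists, leaving out mitochondrial, haemoglobin, Xist, Y-linked, ribosomal protein and unnamed genes. A withheld item is not reported here. Sums, intervals and thinning were computed with Python 3.11.15 (pandas 2.3.3, scipy 1.17.1), clustering and doublet scores with scanpy 1.11.5 and TMM factors alone with edgeR 4.0.16 in R 4.3.3, with gene positions from GENCODE and promoters from RefSeq, both on GRCm38. Alternatives changed the totals, the minimum count, the thinning, the doublets kept and the assignment.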

Additional observations from a re-analysis of the deposited data

How the results depend on the processing

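The number of genes called in OLCs-2 depended on the totals and on the minimum count. Against the other listed BMSCs, the 525 higher genes became 874 without type I collagen in the totals, 915 with TMM, 334 with a minimum of 100 UMIs and 2680 with none, and the 3449 lower genes became 2009 when cells were thinned to 1000 UMIs. Against OLCs-1, the 320 higher genes became 508, 705, 170 and 715 under those 4 settings and 138 after thinning. The 1820 lower genes became 1083, 766, 517 and 4019, and 476 after thinning. Fewer genes were tested with the minimum of 100 UMIs and after thinning, and more without a minimum. The Col1a1 share of 15.8% was 14.9% as a mean over cells and 16.4% without mitochondrial and haemoglobin genes. Among the 304 ratios of named genes, changes of direction were counted only for those of at least 2 or at most 0.5. Ratios within 2-fold, which can cross 1 when the totals change, were not counted. Of the counted ratios, that of Col10a1 alone changed direction. It fell to 0.388 without the 5% of cells with the highest doublet scores. It was 0.226 without its richest cell and 0.226 without the 3 cells of low Col1a1 share, these 2 alternatives being chosen after seeing the data. The shares of OLCs-2-like cells stayed within their counting intervals, at 1.88% in WT and 1.03% in Bmx-CreER Wls by joint clustering, 2.06% and 1.07% without collagen genes, and 2.11% and 1.09% in deeper cells. No paired analysis was possible because each condition has 1 library. The depth limits sparse genes such as Bglap2 and Sost, for which 3 UMIs in OLCs-2 equal 4.94 CPM.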

Other observations

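Fosb, Zfp36, Egr1, Junb and H19 lie outside the rule for named genes and were chosen after their values were seen. Immediate-early genes are switched on quickly after a stimulus, and some of them were higher in OLCs-2 than in the other listed BMSCs. Fos stood at 2581 CPM against 1229 CPM, a ratio of 2.10 (1.99 to 2.22), and Fosb at 921 against 134 CPM, a ratio of 6.88 (6.15 to 7.71). Zfp36, an RNA-decay factor of that response, stood at 1793 against 399.7 CPM. Egr1 and Junb did not reach 2-fold, with ratios of 1.23 (1.14 to 1.33) and 1.95 (1.66 to 2.28). In single OLCs-2 cells the Fos share ran from 0% to 0.818% with a median of 0.149%, and it had a Spearman value of 0.432 with depth over 99 cells of the 1 library. Listed chondrocytes held 2854 CPM of Fos and 619 CPM of Fosb, and OLCs-1 1886 and 437 CPM.

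H19, the imprinted noncoding RNA of fetal tissues, stood at 459.8 CPM (407 to 517) in OLCs-2, against 11119.6 CPM in OLCs-1, 7094 in aBMSCs, 31516 in eBMSC-1 and 31675 in chondrocytes. It had a UMI in 45 OLCs-2 cells, and 128 of 279 UMIs lay in 1 cell. Igf2, its neighbour on the same imprinted locus, stood at 654 CPM against 15195 CPM in the other BMSCs, a ratio of 0.0431 (0.0389 to 0.0475). HSPCs held 580.1 CPM of H19.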
